A study of Mus musculus with 6 samples.

Results

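The genes described are 10 of the 19 mouse Wnt ligand genes: Wnt3a, Wnt4, Wnt5a, Wnt5b, Wnt6, Wnt7a, Wnt7b, Wnt9a, Wnt10a and Wnt11. They were chosen by name, with earlier results of these data known. Each was measured by the probes whose RefSeq transcript belonged to it. The array carried 22910 named genes, of which 14345 had a probe marked well above background by the scanner software on 3 or more arrays and were tested. All 10 ligand genes were well above background on all 6 arrays and were tested. So was Wnt1, which is not among the 10.

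The cells were 2D-MAOs, mouse airway epithelial organoids from C57BL/6 lung that had been dissociated and plated as a flat layer on type I collagen. In the TGF-β1 group, 3 cultures received TGF-β1 from day 3, and in the control group 3 cultures did not. Both groups were kept from day 3 in medium lacking noggin, a BMP antagonist, and A83-01, an inhibitor of the TGF-β type I receptor, and both were harvested on day 7. The concentration of TGF-β1 in this experiment is not given in the sources used here, and neither is whether the biological replicates came from separate animals, so that the p-values measure the spread between these cultures. The comparison addressed what TGF-β1 changed in the airway cells, which the study used as the layer to which colorectal cancer organoids attached.

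Wnt ligands are secreted lipid-modified glycoproteins that act over short distances. Porcn attaches the lipid and Wls carries the ligand to the cell surface, where it binds Frizzled receptors together with Lrp5 or Lrp6, which stabilizes β-catenin and switches on genes through Tcf/Lef factors, or with Ror and Ryk receptors, which act on cell polarity and movement. Wnt3a and Wnt10a are known as ligands of the β-catenin branch, and Wnt5a, Wnt5b and Wnt11 as ligands that mostly act outside it. In the lung, Wnt7b from the epithelium is needed for growth of the underlying mesenchyme.

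The labelled cell type was checked against 12 airway epithelial markers. The keratin genes Krt8, Krt18 and Krt19, Cdh1 and the lung factor Nkx2-1 were well above background on all arrays, and no array showed Muc5ac, a goblet cell mucin, well above background. TGF-β1 response genes were higher in the treated group: Tgfbi by 4.58 ± 0.31 (log2 fold change ± SE, limma adjusted p = 0.00247) and Pmepa1 by 1.31 ± 0.12 (adjusted p = 0.00619), while Smad7 and Skil, at 0.82 and 0.65, did not pass the threshold. Skil passed without TGF-β1 replicate 3, described next (0.62, adjusted p = 0.0365). TGF-β1 replicate 3 stood apart. Its distance over all tested genes was 54.4 to 60.9 to the controls and 61.1 and 62.3 to TGF-β1 replicates 1 and 2, which lay 32.3 from each other (Euclidean distance of log2 signals). The ligands are therefore given with and without that array, and other genes where their call changed. Replicate 3 of each group lay in slide row 2 and the other arrays in slide row 1.

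Of the 10 ligands, Wnt5b passed the test in the full comparison. It was 2.03-fold higher in the TGF-β1 group (log2 fold change 1.02 ± 0.14 SE, 95% interval 0.69 to 1.35, limma adjusted p = 0.0211). The other ligands ranged from a log2 difference of -0.40 for Wnt5a to 1.97 for Wnt11, with none of them past the threshold. A gene was called at a Benjamini-Hochberg adjusted p under 0.05 over all genes tested. By that rule 1 of 10 ligands was called higher, against 1.63% of all genes tested, and 0 of 10 were called lower, against 0.404% of all genes. The count of ligands lower at an unadjusted p under 0.05 was also 0, by limma, which placed 10.7% of all genes there, and by the methods' t-test, which placed 8% there. The median log2 fold change of the 10 ligands was 0.89, and that of all genes tested was -0.03.

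Since Wnt5b passed the test, 2 of its RefSeq promoters are shown. RefSeq gives Wnt5b 3 transcript starts in the table used here, and the array does not tell which of them were used in these cells. Each window covers 250 bases before to 50 bases after a start on assembly GRCm38.p6, printed on the gene's strand. Motifs were searched on both strands, and capitals mark the matches: CAGACA, a Smad-binding sequence, TGANTCA, the sequence of AP-1 factors, and ATCAAAG, a core Tcf/Lef sequence. GTCTAGAC, the palindromic Smad sequence, was searched too. Wnt11, chosen after its values were seen because it had the largest log2 difference among the ligands, is shown beside them.
Wnt5b promoter at chr6:119544298-119544597, minus strand: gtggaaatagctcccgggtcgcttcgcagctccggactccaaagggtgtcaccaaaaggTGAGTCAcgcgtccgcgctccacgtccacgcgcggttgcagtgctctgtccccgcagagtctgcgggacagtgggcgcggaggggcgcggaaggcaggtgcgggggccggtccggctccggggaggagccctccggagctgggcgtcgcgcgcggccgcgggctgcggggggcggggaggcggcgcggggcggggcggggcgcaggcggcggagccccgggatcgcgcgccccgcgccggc
Wnt5b promoter at chr6:119449337-119449636, minus strand: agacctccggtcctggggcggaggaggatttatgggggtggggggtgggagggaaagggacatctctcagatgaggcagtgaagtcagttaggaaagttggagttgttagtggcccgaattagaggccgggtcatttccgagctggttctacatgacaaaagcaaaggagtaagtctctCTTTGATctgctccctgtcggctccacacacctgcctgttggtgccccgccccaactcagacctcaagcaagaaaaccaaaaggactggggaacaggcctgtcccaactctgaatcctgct
Wnt11 promoter at chr7:98834862-98835161, plus strand: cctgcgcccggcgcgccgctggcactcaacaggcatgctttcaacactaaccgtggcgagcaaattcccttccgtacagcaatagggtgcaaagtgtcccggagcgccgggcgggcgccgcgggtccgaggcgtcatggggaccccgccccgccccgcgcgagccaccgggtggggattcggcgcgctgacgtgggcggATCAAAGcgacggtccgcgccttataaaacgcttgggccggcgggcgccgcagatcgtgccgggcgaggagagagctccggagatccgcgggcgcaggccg
The first Wnt5b window held 1 match of TGANTCA, whose first base lay at position -191 from the start. The second Wnt5b window held ATCAAAG on the antisense strand at position -71, and the Wnt11 window held it on the sense strand at position -51. The remaining Wnt5b window and the second Wnt11 window held no match of the 4 motifs. Of 32851 promoter windows of the same length, 7.81% held TGANTCA, 3.73% held ATCAAAG, 21.0% held CAGACA and 0.213% held GTCTAGAC. Among the other ligands with a window in the table, Wnt7a held CAGACA at position -122, and Wnt3a, Wnt4, Wnt6 and Wnt9a held none of the 4 sequences. A match is a stretch of letters and says nothing of binding.

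Wnt5b, a ligand known mainly for signalling outside the β-catenin branch, gave log2 signals of 9.03, 9.10 and 8.89 in control replicates 1 to 3. In TGF-β1 replicates 1 to 3 it gave 10.08, 10.20 and 9.79. The lowest treated array was above the highest control, and TGF-β1 replicate 3 was the lowest of the treated group. A second probe of Wnt5b gave 7.05, 6.89 and 6.72 in the controls and 7.77, 7.73 and 7.65 with TGF-β1, a difference of 0.83 on the log2 scale, again without overlap. The exact two-sided permutation test gave p = 0.1 for the main probe, which is the smallest p that 3 arrays against 3 allow. When 1 array was left out at a time, the log2 fold change of Wnt5b lay between 0.93 and 1.14. Its call held without TGF-β1 replicate 3 (adjusted p = 0.00626) and was lost without any of the other 5 arrays: adjusted p was 0.0901, 0.0767 and 0.0507 without control replicates 1, 2 and 3, and 0.106 and 0.0930 without TGF-β1 replicates 1 and 2. Those fits called fewer genes higher in all, 49 to 198 in place of 234. The call was also lost with no filter on dim probes (adjusted p = 0.0690) and, over the same genes, with the methods' t-test after adjustment (adjusted p = 0.145).

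Wnt7a, Wnt9a, Wnt3a and Wnt11 did not overlap between the groups either, although none passed the test. Together with Wnt5b, 5 of 10 ligands were higher on every treated array than on every control, against 12.9% of all genes tested. In the opposite direction this held for 0 of 10 ligands, against 13.5% of all genes. The same 5 ligands were higher at an unadjusted p under 0.05, against 11.4% of all genes.

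Wnt7a gave 12.80, 12.30 and 12.71 in the controls and 13.29, 13.32 and 13.50 with TGF-β1. Its treated arrays lay within a narrow range, with replicate 3 the highest. By limma it differed by 0.77 ± 0.16 SE on the log2 scale, just outside the threshold (adjusted p = 0.0687). It passed with normexp background correction (adjusted p = 0.0346) and without TGF-β1 replicate 3 (adjusted p = 0.0463).

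Wnt9a gave 13.33, 12.90 and 13.35 in the controls and 14.17, 14.33 and 13.55 with TGF-β1. Replicate 3 was the lowest treated array and stood just above the controls. The groups differed by 0.82 ± 0.23 SE on the log2 scale (limma adjusted p = 0.129).

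Wnt3a, the best-known ligand of the β-catenin branch, gave 7.25, 5.83 and 7.21 in the controls and 8.15, 7.31 and 9.09 with TGF-β1. Control replicate 2 was low, and TGF-β1 replicate 3 was the highest array, the reverse of its place for Wnt9a and Wnt11. Wnt3a differed by 1.42 ± 0.54 SE on the log2 scale (limma adjusted p = 0.196). The spots of this probe were dim, at 2.54 to 5.09 times the local background on the control arrays and 5.85 to 15.1 times on the treated ones.

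Wnt11, a ligand of cell polarity signalling, gave 8.02, 8.32 and 7.99 in the controls and 10.66, 11.19 and 8.38 with TGF-β1. Replicates 1 and 2 were far above the controls, and replicate 3 exceeded the highest control by little. The difference of 1.97 ± 0.67 SE on the log2 scale missed the threshold (limma adjusted p = 0.169) and became 2.82 ± 0.20 without TGF-β1 replicate 3 (adjusted p = 0.00268). A second probe gave 6.67, 7.48 and 6.95 in the controls and 9.31, 10.03 and 7.12 with TGF-β1, where replicate 3 fell inside the control range. The 3 tested genes whose pattern over the 6 arrays was most like that of Wnt11 were Moxd1, Ccdc80 and Procr, at distances of 0.870, 0.884 and 0.957 (Euclidean, log2 signals relative to the control mean).

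**Figure D1:**
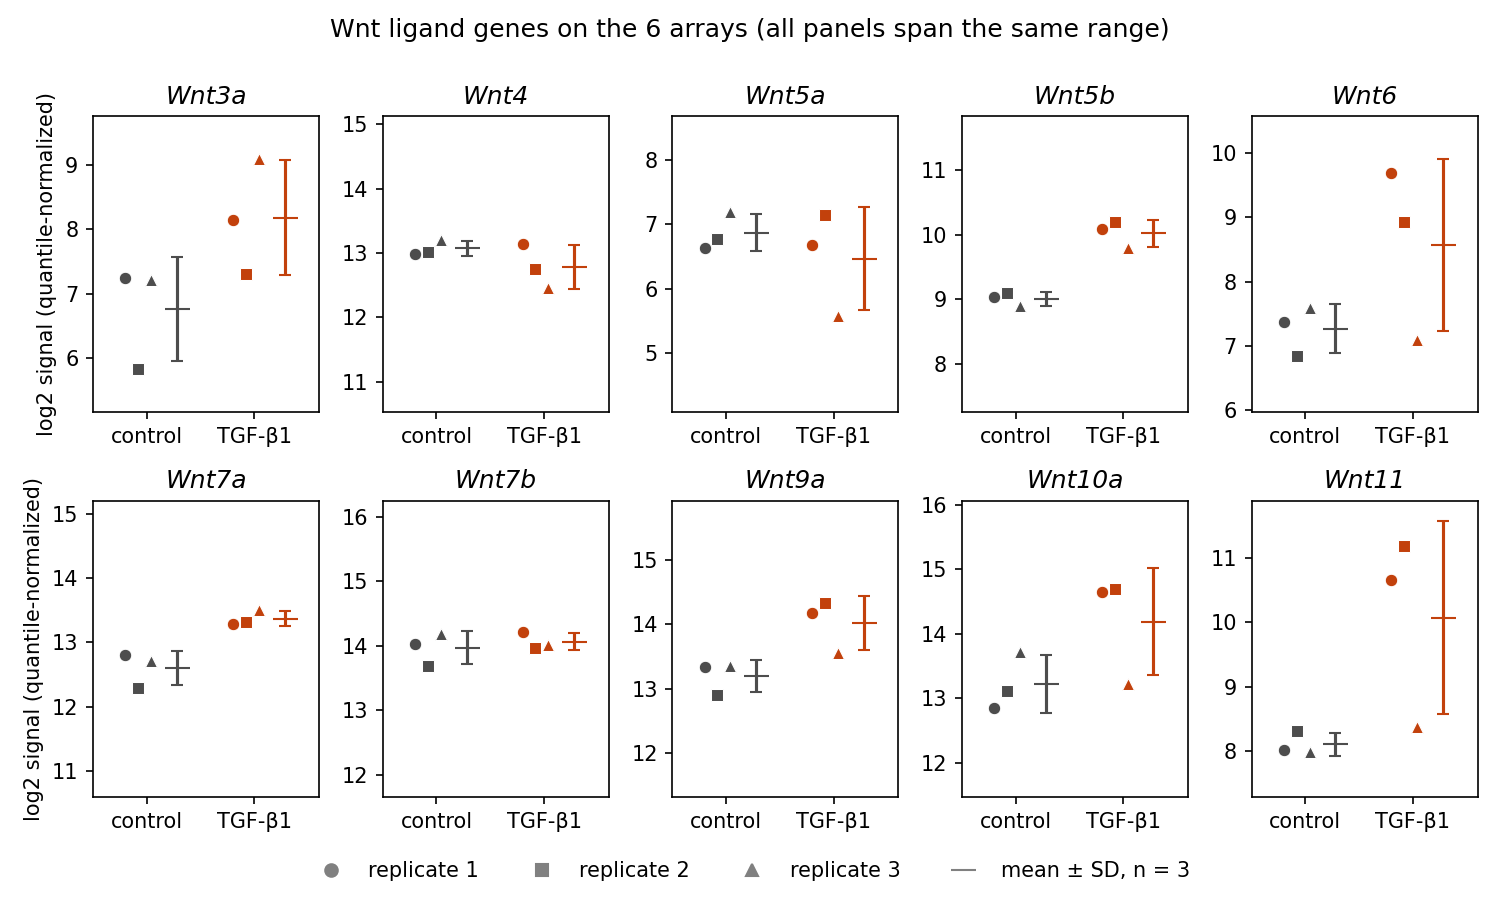
Quantile-normalized log2 signal (vertical axis) of the 10 Wnt ligand genes on the 3 control and 3 TGF-β1 arrays, with the mean ± SD of each group (n = 3) beside the points and all panels spanning the same range. The groups do not overlap for Wnt3a, Wnt5b, Wnt7a, Wnt9a and Wnt11, and TGF-β1 replicate 3 (triangle) lies among or near the controls for Wnt6, Wnt9a, Wnt10a and Wnt11.

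Wnt6 and Wnt10a, which lie next to each other on chromosome 1, were split in the same way between the treated arrays. Wnt6 gave 7.37, 6.85 and 7.59 in the controls and 9.69, 8.93 and 7.09 with TGF-β1. Wnt10a gave 12.84, 13.12 and 13.72 in the controls and 14.64, 14.69 and 13.23 with TGF-β1. For both genes replicates 1 and 2 were above every control and replicate 3 lay inside the control range. The log2 fold changes over all arrays were 1.30 ± 0.62 SE for Wnt6 (limma adjusted p = 0.269) and 0.96 ± 0.43 SE for Wnt10a (limma adjusted p = 0.245). Without TGF-β1 replicate 3 they were 2.04 (adjusted p = 0.0140) and 1.44 (adjusted p = 0.0223). Wnt3a and Wnt9a are also neighbours, on chromosome 11, but replicate 3 was the highest treated array for Wnt3a and the lowest for Wnt9a.

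The remaining ligands gave smaller differences. Wnt4 gave 12.99, 13.02 and 13.20 in the controls and 13.15, 12.75 and 12.45 with TGF-β1, a log2 difference of -0.29 with a 95% interval from -0.73 to 0.15. Wnt7b gave 14.03, 13.68 and 14.19 in the controls and 14.22, 13.97 and 14.01 with TGF-β1. Its log2 difference of 0.10 had a 95% interval from -0.28 to 0.47 and turned to -0.11 when arrays were scaled to their 75th percentile. A second probe of Wnt7b differed by -0.05. For Wnt4 and Wnt7b the intervals leave out a 2-fold change in either direction.

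Wnt5a gave 6.64, 6.77 and 7.19 in the controls and 6.68, 7.14 and 5.58 with TGF-β1. Its log2 difference of -0.40 rested on replicate 3, since it became 0.05 without that array, and the 95% interval from -1.33 to 0.53 was wide. No array showed a second Wnt5a probe well above background. Wnt5a and Wnt5b, close relatives in sequence, thus did not share a direction in the full comparison, where the first did not pass the test.

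Without TGF-β1 replicate 3, 6 of 10 ligands were called higher, against 9.08% of all genes, and 0 of 10 lower, against 6.27% of all genes. The 6 were Wnt5b, Wnt6, Wnt7a, Wnt9a, Wnt10a and Wnt11. Wnt3a, at 0.96, did not pass (limma adjusted p = 0.213), nor did Wnt4, Wnt5a and Wnt7b. The same 6 passed when the arrays of slide row 1 alone were compared, 2 against 2, where 13.8% of all genes were called higher. Replicates 1 and 2 of the TGF-β1 group were both above all controls for 7 of 10 ligands, and replicate 3 was above them as well for 5 of these 7. Over all genes tested, the first held for 3615 genes, and replicate 3 was above the controls as well for 51.1% of them.

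**Figure D2:**
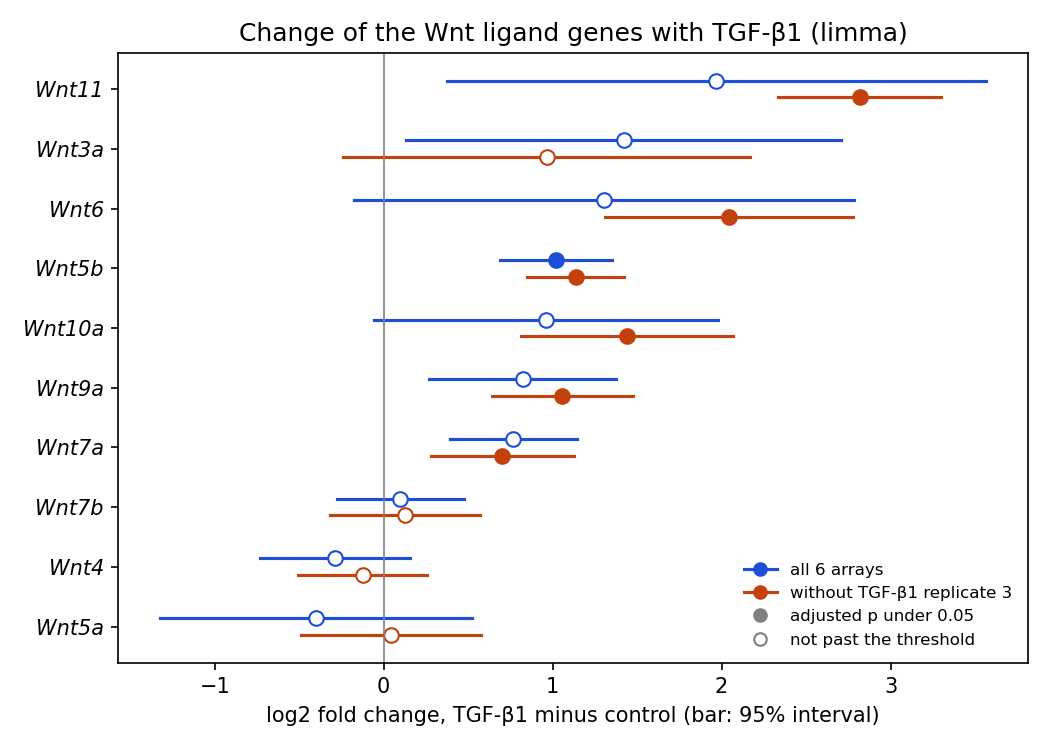
Log2 fold change with its 95% interval (horizontal axis, TGF-β1 minus control, limma) of the 10 ligand genes over all 6 arrays and without TGF-β1 replicate 3, with filled points for an adjusted p under 0.05. Wnt5b is filled in both fits, and Wnt6, Wnt7a, Wnt9a, Wnt10a and Wnt11 are filled without that array.

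**Figure D3:**
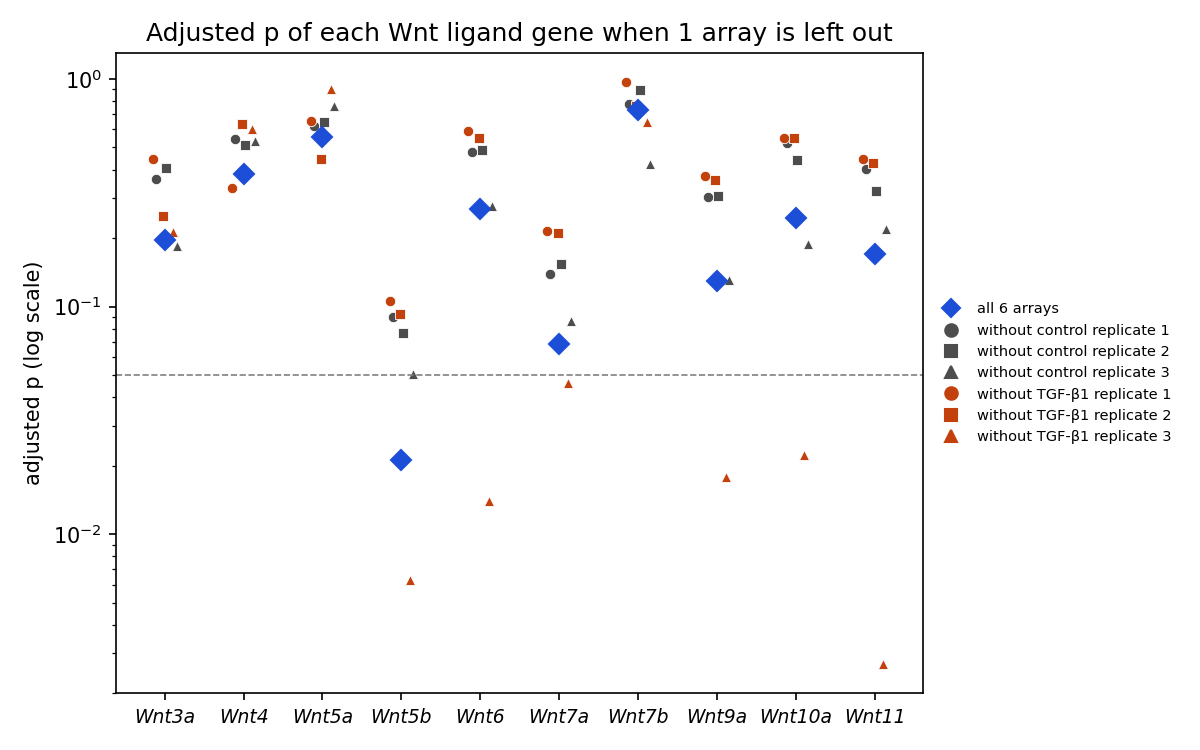
Adjusted p (vertical axis, log scale) of each ligand gene over all 6 arrays (diamond) and with 1 array left out at a time, with a dashed line at 0.05. For Wnt5b the 5 fits that keep TGF-β1 replicate 3 and drop another array lie between 0.0507 and 0.106, and the fit without TGF-β1 replicate 3 lies at 0.00626.

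Some markers of another cell type were higher with the treatment. Of 8 fibroblast markers, Col1a1 and Col1a2, the chains of type I collagen, were called higher. On the 3 control arrays neither reached well above background, and the bounds were at least 2.16-fold higher for Col1a1 (measured group means 2.75 and 5.08, limma adjusted p = 0.0131) and at least 2.38-fold for Col1a2 (3.19 and 5.25, adjusted p = 0.0162). Both genes met the filter for testing through the treated arrays alone, so these adjusted p-values add no separate support. No array showed Col3a1, Pdgfrb or Lum well above background. Pdgfra, well above background on all 6 arrays, differed by 0.21 (limma adjusted p = 0.484), and its groups overlapped. The summed signal of the 8 markers was 577 to 647 on the control arrays and 2699, 1202 and 705 on TGF-β1 replicates 1, 2 and 3. Dcn alone made 68.5% to 81.2% of each sum, and it did not pass the test (log2 difference 1.00, adjusted p = 0.273). The other 7 markers summed to 128 to 141 on the control arrays and to 508, 379 and 198 on TGF-β1 replicates 1, 2 and 3. Thy1 gave 4.14, 4.67 and 4.23 in the controls and 8.19, 7.65 and 4.60 with TGF-β1, with replicate 3 low as for Wnt11. Its log2 difference of 2.47 did not pass (limma adjusted p = 0.176) and passed without TGF-β1 replicate 3 (3.58, adjusted p = 0.00219). The part of such cells in the ligand values was not tested, and in these bulk cultures more cells of a type and more RNA per cell cannot be told apart.

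Other cell types and the epithelial subtypes were checked in the same way. No array showed the leukocyte marker Ptprc or the endothelial markers Cdh5, Kdr and Tek well above background. The summed signal of 5 leukocyte markers was 5589 to 6509 in the controls and 8053 to 10167 with TGF-β1, with 51.1% to 71.5% of each sum from Itgam. None of the 5 was called. Itgam differed by 0.43 (limma adjusted p = 0.134), Cd68 by 0.90 (adjusted p = 0.147) and Cd3e by -0.24 (adjusted p = 0.395). A second Itgam probe, near the background, differed by -0.56, and a second Cd3e probe by -0.57. The summed signal of 5 endothelial markers was 83.7 to 106 in the controls and 102 to 114 with TGF-β1, with 63.0% to 78.7% from Pecam1. The summed signal of 12 airway epithelial markers was 311210 to 339946 in the controls and 467784, 460549 and 308286 on TGF-β1 replicates 1, 2 and 3. Foxj1, the regulator of motile cilia, rose by 1.47 ± 0.10 SE (limma adjusted p = 0.00239). The basal cell keratins Krt5 and Krt14 differed by 1.37 (adjusted p = 0.178) and 1.55 (adjusted p = 0.0859), and the club cell gene Scgb1a1 by -2.27 (adjusted p = 0.158). Krt5 and Krt14 were called higher without TGF-β1 replicate 3, by 1.90 (adjusted p = 0.0195) and 1.92 (adjusted p = 0.0109), as was Epcam, by 1.03 (adjusted p = 0.0179). Their part in the ligand values was not tested.

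Of the other 9 Wnt ligand genes, Wnt1 was tested and differed by 0.06 (limma adjusted p = 0.745). On no array were Wnt2, Wnt2b, Wnt8b, Wnt9b and Wnt16 well above background. Wnt3 and Wnt8a were well above background on control replicate 3 alone, and Wnt10b on TGF-β1 replicates 1 and 2 alone. None of these 8 was tested.

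The rest of the Wnt pathway was described by 6 lists beside the ligands. Of the 2 secretion genes, neither passed the test. Porcn differed by 0.51 (limma adjusted p = 0.150) without overlap, and Wls by 0.30 (adjusted p = 0.413). Porcn was called higher without TGF-β1 replicate 3, by 0.62 (adjusted p = 0.0436).

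Of 16 receptors and co-receptors, 15 were tested, 12 of them with a positive difference, and 0 were called in either direction, with 6 higher at an unadjusted p under 0.05, a threshold that 11.4% of all genes passed. The median log2 fold change was 0.38. The largest differences were those of the Frizzled receptors Fzd1 at 0.85 ± 0.19 SE (limma adjusted p = 0.0830), Fzd7 at 0.54 (adjusted p = 0.190) and Fzd2 at 0.52 (adjusted p = 0.201). Ror2, a receptor for Wnt5a, did not reach well above background on an array. Without TGF-β1 replicate 3, 3 of the 15 receptors were called higher, against 9.08% of all genes. They were Fzd1 (0.98, adjusted p = 0.0249), Fzd10 (1.35, adjusted p = 0.0253) and Ptk7, a receptor of polarity signalling (0.63, adjusted p = 0.0357). Fzd10 gave 9.04, 9.29 and 9.41 in the controls and 11.005, 10.19 and 7.67 with TGF-β1, so that replicate 3 lay below the controls while the other treated arrays lay above them.

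Of 16 extracellular inhibitors, 6 were tested and 1 was called higher, against 1.63% of all genes. Sfrp2, a secreted protein that binds Wnt ligands, gave 1.54, 2.51 and 2.91 in the controls and 7.14, 7.13 and 5.50 with TGF-β1. All 3 treated arrays were well above background and no control array was, so that its change was a bound of at least 6.13-fold higher (measured group means 2.32 and 6.59, limma adjusted p = 0.0151). Sfrp2 met the filter for testing through the treated arrays alone, so its adjusted p adds no separate support. It was not called with no filter, and was not tested when detection on all 6 arrays was required. Dkk3 gave 4.33, 4.47 and 4.08 in the controls and 7.13, 7.24 and 5.47 with TGF-β1, a log2 difference of 2.32 that did not pass (limma adjusted p = 0.0604) and did pass without TGF-β1 replicate 3 (adjusted p = 0.00128). Notum, an enzyme that removes the lipid from Wnt ligands, differed by -0.04 (adjusted p = 0.823). A second Notum probe, near the background, gave 4.43, 4.27 and 3.89 in the controls and 1.75, 2.60 and 3.74 with TGF-β1. It was well above background on 2 control arrays and on no treated one. Apcdd1, a membrane inhibitor, was called higher without TGF-β1 replicate 3 (0.93, adjusted p = 0.0249). Dkk1 was among 8 inhibitors that no array showed well above background.

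Of 9 genes of the R-spondin axis, 5 were tested and 1 was called higher, against 1.63% of all genes. Lgr6, an R-spondin receptor, gave 8.43, 8.08 and 8.08 in the controls and 8.93, 9.23 and 9.14 with TGF-β1, a rise of 0.90 ± 0.14 SE that stayed under 2-fold (limma adjusted p = 0.0348). Lgr5, its relative, gave 5.02, 6.38 and 5.46 in the controls and 7.91, 8.10 and 6.53 with TGF-β1, without overlap and without passing the test (log2 difference 1.89, adjusted p = 0.113), and it was called higher without TGF-β1 replicate 3 (2.39, adjusted p = 0.0175). None of Rspo1 to Rspo4 was well above background on an array.

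Of 16 intracellular signal carriers, 15 were tested and 0 were called in either direction, with 2 of the 15 higher at an unadjusted p under 0.05, against the same 11.4% of all genes. Their median was 0.03. Vangl2, Daam1 and Vangl1, which act in polarity signalling, had the largest differences, at 0.84 (limma adjusted p = 0.111), 0.42 (adjusted p = 0.207) and 0.31 (adjusted p = 0.291). Vangl2 and Daam1 were called higher without TGF-β1 replicate 3, by 1.04 (adjusted p = 0.0197) and 0.58 (adjusted p = 0.0377). Ctnnb1, which encodes β-catenin, differed by 0.08 ± 0.12 SE.

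Of 10 target genes of the β-catenin branch, 7 were tested. Of these, 2 were called higher, against 1.63% of all genes, and 0 lower, against 0.404%. Ccn4, a matricellular protein, gave 5.38, 4.84 and 4.27 in the controls and 9.67, 9.52 and 8.28 with TGF-β1, a rise of 4.33 ± 0.43 SE (limma adjusted p = 0.00756). Tcf7, a transcription factor of the pathway, gave 5.31, 5.20 and 5.07 in the controls and 6.71, 6.37 and 6.24 with TGF-β1, a rise of 1.25 ± 0.15 SE (limma adjusted p = 0.0141). Axin2, the target most often used as a readout, gave 5.24, 5.09 and 5.32 in the controls and 6.28, 6.06 and 4.47 with TGF-β1. Replicates 1 and 2 of Axin2 were above the controls and replicate 3 was below them, so that the log2 difference was 0.39 (adjusted p = 0.625), and 0.96 without replicate 3 (adjusted p = 0.0119). Ascl2, Ccnd1 and Myc differed by -0.52 (adjusted p = 0.127), -0.18 (adjusted p = 0.317) and 0.11 (adjusted p = 0.754). Nkd2 was higher by 0.43 without overlap and did not pass (limma adjusted p = 0.193).

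With the other ligands included, 51 of these 78 genes were tested, with a median log2 fold change of 0.30, 4 called higher, against 1.63% of all genes, and 0 lower, against 0.404%. Of the 4, Sfrp2 met the filter for testing through the treated arrays alone. Without TGF-β1 replicate 3, 14 were called higher, against 9.08% of all genes, and 0 lower, against 6.27%. With 1 array left out at a time, Ccn4 was called in 6 of 6 fits, Tcf7 in 3, Sfrp2 in 2 and Lgr6 in 1. The call of Tcf7 was lost without control replicates 1 or 2 or TGF-β1 replicate 2, that of Sfrp2 without those arrays or TGF-β1 replicate 1, and that of Lgr6 without any array but TGF-β1 replicate 3. The 5 fits that kept TGF-β1 replicate 3 left 1 to 3 of the 4 called.

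**Figure D4:**
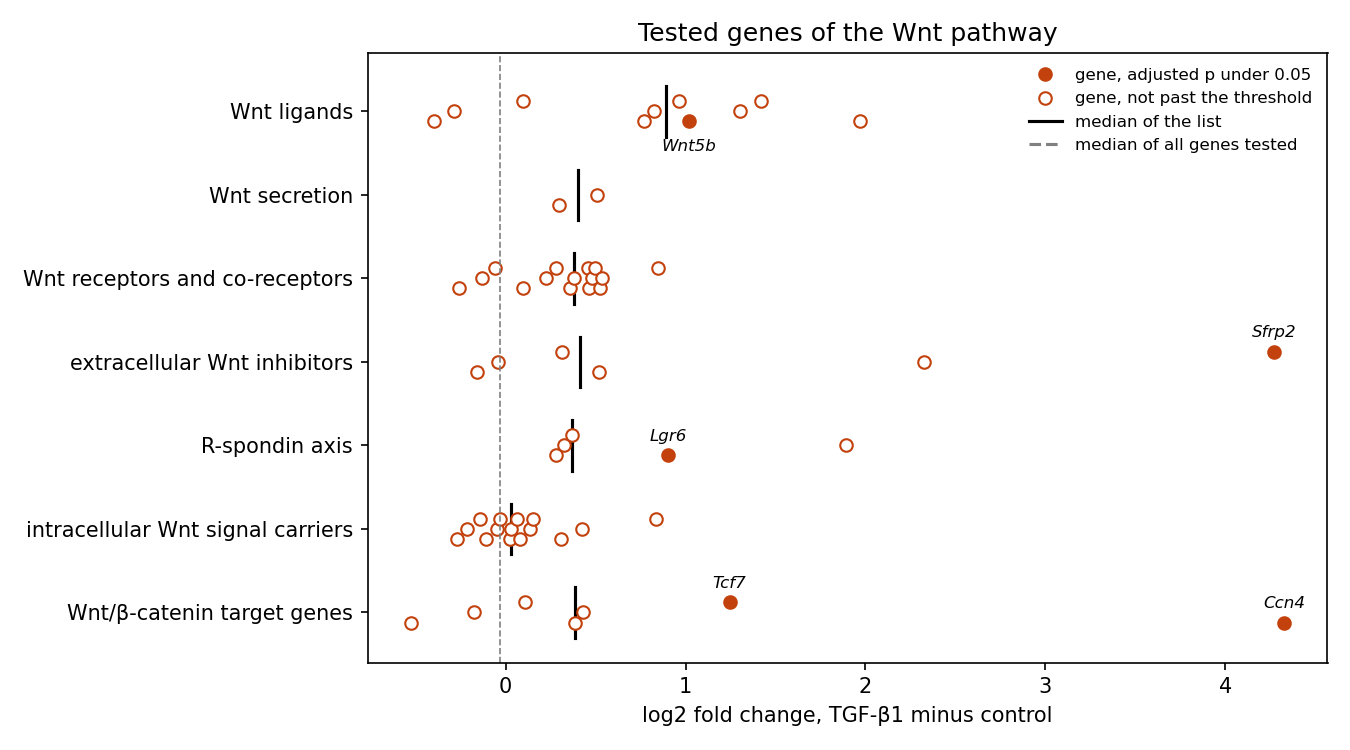
Log2 fold change (horizontal axis, TGF-β1 minus control, limma, 6 arrays) of the tested genes of each Wnt pathway list, with filled points for an adjusted p under 0.05, a bar at each list's median and a dashed line at the median of all genes tested. Wnt5b, Sfrp2, Lgr6, Tcf7 and Ccn4 are filled, and the value of Sfrp2 is a fit against controls that were not well above background.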

How the data were processed

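RNA of 3 control and 3 TGF-β1 cultures was measured on 6 one-colour Agilent arrays (Cy3), which lay on 1 slide and shared 1 scan. Per the labels, Agilent Feature Extraction 11.0.1.1 read the arrays. The deposited files hold the spot intensity on a linear scale after background subtraction, without normalization between arrays, which the authors' methods did by quantiles. Each array had 55.0% to 59.0% of probes well above background, and the number of arrays limits the precision.

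Control spots and outlier spots were left out, which left 56599 probes. Files name probes by accession; 32991 of 35883 with a RefSeq accession matched a gene through a RefSeq table of GRCm38.p6, and 32460 probes passed the filter. Probe positions are not given, because the design's annotation predates that assembly. Deposited intensities were converted to log2 and quantile-normalized here. A gene was represented by its brightest probe. The fit used limma 3.58.1 in R 4.3.3, tested on simulated data, without covariates; a call needed an adjusted p under 0.05. Levels were compared between arrays and not between probes, apart from the shares of single markers in summed signals. For a gene below background in 1 group, the bound sets the brighter group's mean against the lowest signal well above background on the dimmer arrays.

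The members, the gene lists and the tests were chosen with earlier results of these data known. The genes named are all Wnt ligands, the called genes of each pathway list or up to 3 with the largest change, 5 TGF-β response genes (1 of them not reported here), and markers. Notum, Ctnnb1, Apcdd1, Dkk1, Dkk2, Dkk3, Fzd10, Ptk7, Ror2, Lgr5, Rspo1 to Rspo4, Axin2, Nkd2, Ascl2, Ccnd1 and Myc were named outside this rule after their values were seen. The alternatives tried were normexp with an offset of 50 on median spot signals (the files hold no mean), scaling to the 75th percentile, probes as units, gene means over probes, detection on all 6 arrays or no filter, an unadjusted threshold, the methods' t-test, trend and robust priors, array weights, blocks for replicate or slide row, slide row 1 alone, and each array left out.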

Additional observations from a re-analysis of the deposited data

Results flagged for a closer look

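Wnt10b and Lef1 were not part of the comparison, because each was well above background on fewer than 3 arrays, but both gave signal above background on TGF-β1 replicates 1 and 2 and on no control. Wnt10b gave 3.34, 2.97 and 1.76 in the controls and 5.31, 4.68 and 3.90 with TGF-β1, a log2 difference of 1.94 between means of 2.69 and 4.63. The treated mean includes replicate 3, which was not well above background, so that no bound on the fold is given. No array showed a second Wnt10b probe well above background. Lef1, a factor and target of the β-catenin branch, gave 2.95, 1.67 and 1.79 in the controls and 4.12, 3.67 and 1.65 with TGF-β1, a log2 difference of 1.01 that is too close to the background to give a fold. Neither was tested.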

How the results depend on the processing

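The count of ligands called higher, 1 in the full comparison, was 2 with normexp background correction and 2 with trend and robust priors (Wnt5b and Wnt7a), 2 with probes as the unit (both of Wnt5b), 0 with no filter, 5 at an unadjusted threshold, 3 by the methods' t-test and 0 after its adjustment, and 6 with array weights and 6 on slide row 1 alone. With 1 array left out it ranged from 0 to 6. No ligand was called lower under any of these. The pathway count of 4 higher was 1 with no filter. That gene was Dkk2, not tested in the full comparison, and none of the 4 was called there. The count was 16 (and 1 lower) at an unadjusted threshold, 10 (and 3 lower) by the methods' t-test and 0 after its adjustment. It was 23 (and 2 lower) with array weights, 22 on slide row 1 alone, and 1 to 14 with 1 array left out. Over all genes, 234 were called higher and 58 lower (1.63% and 0.404%). The shares higher were 2.42% with normexp, 2.78% with trend and robust priors, 1.25% of probes, 0.258% with no filter, 11.4% unadjusted, 9.09% by the methods' t-test and 0.0488% after its adjustment, 16.8% with array weights and 13.8% on slide row 1 alone. The shares lower were 17.9% with array weights and 13.0% on slide row 1 alone. Wnt5a turned from -0.40 to 0.0254 with array weights, 0.0457 without TGF-β1 replicate 3 (-0.74 to 0.0457 with 1 array left out) and 0.21 on slide row 1 alone. Wnt7b turned from 0.10 to -0.11 under scaling to the 75th percentile and to -0.0435 without control replicate 2 (-0.0435 to 0.21 with 1 array left out). Of the ligands' log2 fold changes under every alternative but probes as the unit, which gives no single value per gene, 155 kept their direction and side of the threshold, 23 came to pass it, 7 no longer passed it (all of Wnt5b) and 5 changed sign. The causes were not tested beyond what each setting leaves out.

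The labels do not say whether the replicate numbers pair the cultures. The deviations of same-numbered samples correlated at -0.01, 0.33 and -0.05, and those of other pairs at -0.37 to 0.25. These values cannot decide it, because the deviations sum to 0 within each group of 3. With the replicate block, Wnt5b was the 1 ligand called (adjusted p = 0.0493), 2 pathway genes were called, and 85 genes were higher and 18 lower in all. Dim probes, such as those of Wnt3a and Wnt5a, limit what can be said of those genes.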
